A study of Mus musculus with 96 samples.

Results

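The 4 keratin genes Krt8, Krt18, Krt19 and Krt15 and Trp63, the gene of p63, were followed. They make up 5 of the 96 assays run on 96 single cells of the neonatal mouse uterus. They were found by the protein or gene name of their assay. The cells were taken from mouse uteri 7 days after birth, were released with collagenase, and were sorted singly by their binding of an antibody to CD326 (EpCAM, a surface protein of epithelium). Strain, number of animals and any pooling are not given in the labels, and there is 1 group with no treatment and no control. Each value is a cycle threshold (Ct), the PCR cycle at which product appears, so an earlier Ct means more template, and 1 cycle is about a doubling. Detection of a gene meant a Ct below 28. Cells of 1 group are not replicates, so no p-value is given, and the exact (Clopper-Pearson) 95% intervals cover counting error only.

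Keratins are the intermediate filament proteins of epithelial cells, and a filament is built from pairs of a type II and a type I keratin. KRT8 is a type II keratin of simple, single-layered epithelium, such as that lining the uterus, and KRT18 and KRT19 are its type I partners there. KRT15 is a type I keratin best known from the basal layer of stratified epithelium. Trp63 encodes p63, a transcription factor that sets up basal and squamous epithelium, and which in the mouse female tract marks the epithelium of the vagina rather than that of the uterus.

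Krt8 and Krt18 lie on chromosome 15 with no protein-coding gene between them in the RefSeq annotation, and Krt15 and Krt19 lie side by side on chromosome 11. Trp63 is on chromosome 16. The RefSeq promoter table (GRCm38.p6), which covers 250 bases before to 50 bases after a gene's start, held 2 of the 5 members. These were Krt8 (chr15:102004293-102004592, minus strand) and Krt18 (chr15:102027966-102028265, plus strand). Both are shown 5′ to 3′ because these neighbours encode partner chains, and the Ct values of the genes are compared below. Capitals mark matches on either strand to a TATA box (TATAAA) and to an E-box (CANNTG).
Krt8: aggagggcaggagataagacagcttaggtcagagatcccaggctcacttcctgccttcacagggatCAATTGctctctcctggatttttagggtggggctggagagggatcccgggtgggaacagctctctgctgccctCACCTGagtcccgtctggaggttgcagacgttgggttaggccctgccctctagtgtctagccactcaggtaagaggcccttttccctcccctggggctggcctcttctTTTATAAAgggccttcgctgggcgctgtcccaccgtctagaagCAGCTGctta
Krt18: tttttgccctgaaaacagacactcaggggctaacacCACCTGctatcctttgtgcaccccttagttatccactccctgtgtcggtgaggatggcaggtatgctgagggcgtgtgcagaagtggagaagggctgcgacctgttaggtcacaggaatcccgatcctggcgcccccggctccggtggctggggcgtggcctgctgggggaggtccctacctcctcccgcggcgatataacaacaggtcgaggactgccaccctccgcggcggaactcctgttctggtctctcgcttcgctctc
The Krt8 window held 2 TATAAA matches, which are overlapping readings of both strands at the annotated start, and 3 E-boxes. The Krt18 window held 1 E-box and no TATAAA. Among 32544 promoter windows of the same length, 13.6% held TATAAA and 72.3% held an E-box. Neither window held a GC box (GGGCGG, in 35.9% of windows) or an AP-1 motif (TGANTCA, in 7.79%), which says only that these letters are not there.

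Transcripts of simple epithelial keratins were present throughout the sorted cells. At least 1 of Krt8, Krt18 and Krt19 was detected in 96 of 96 cells (exact 95% interval 96.2 to 100%), and all 3 together in 83 (86.5%, interval 78.0 to 92.6%). Of the other cells, 9 had a pair of these genes and 4 had 1. Of the 5 members, 3 were found in at least 90% of cells, a bar that 10.4% of the 96 assays reached, and 4 in at least 50%, which 55.2% of assays reached.

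Krt19 was detected in 93 cells, Krt18 in 91 and Krt8 in 87, and the intervals of these shares overlap. Krt15 was detected in 56 cells (58.3%, interval 47.8 to 68.3%), with an interval below those of all 3. Trp63 was detected in 6 cells (6.25%, interval 2.33 to 13.1%), with an interval below that of Krt15. In the order of all assays Krt19 stood level with Bmi1 and Pecam1 (93 cells each) and Krt18 level with Igf1r (91). Krt8 stood level with Cd24a and Fzd7 (87 each), Krt15 with Insr (56) and next to Pgr (55), and Trp63 with Lhx1 (6). These neighbours were picked by their place in that order, so the closeness of their counts is no result.

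Krt18, the type I partner of KRT8, came earliest and varied most of the 4 keratins. Its Ct had a lowest value of 9.68, a median of 15.9 and a highest of 23.0 over 91 cells. The Ct of Krt8 ran from 14.3 to 24.0 with a median of 18.5, and that of Krt19 from 15.5 to 25.5 with a median of 19.4. Primer efficiencies are not known, so the order of Ct between genes is rough, and so is a comparison of their spreads in cycles.

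The level, 28 minus Ct, of Krt18 was 12.12 ± 3.19 (SD, n = 91 detecting cells). That SD ranked 2 among the 53 assays with a share of 50% or more, where the median SD was 2.09. Krt8 (9.53 ± 2.22, n = 87), Krt19 (8.48 ± 2.09, n = 93) and Krt15 (7.85 ± 2.24, n = 56) had SDs close to that median.

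Krt15 had mostly early values where it was detected. Among its 56 detecting cells the lowest Ct was 14.9, the median 19.9 and the highest 27.7, and 53 lay below 24. The 3 later values were 24.4 in cell 54, 24.5 in cell 46 and 27.7 in cell 94. No member had a recorded Ct of 28 or later, so the limit itself moved no cell across. Such early values were common on the panel: of 36 assays with a share of 30 to 70%, 66.7% had at least 90% of their detecting cells below a Ct of 24, and Krt15, with 94.6%, ranked 20 of 36.

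**Figure D1:**
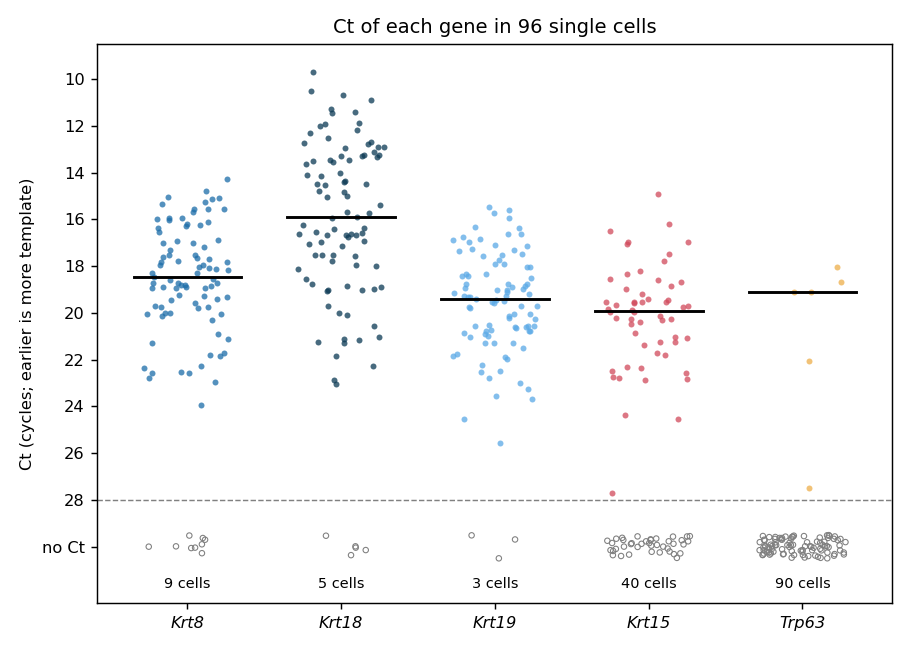
Ct of each member in each of 96 cells (y axis, cycles, earlier Ct at the top), with 1 point a cell, a black bar at the median of the detecting cells and a dashed line at the limit of 28; open circles are cells with no Ct. Krt18 spans 9.68 to 23.0 cycles, and Krt15 has 40 cells with no Ct beside 56 cells around a median of 19.9.

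The cells that lacked a simple keratin were few and mostly shallow. Krt8 was the only type II keratin gene on the panel, so other type II keratins could not be seen. Of the 9 cells without Krt8, each still had a type I keratin. Cell 67 is among them, and the first 71 assays of the table, the Krt8 assay included, are empty in that cell. The other 4 member assays stand among the last 25, and there cell 67 had Krt18 at a Ct of 16.4, Krt19 at 19.5 and Krt15 at 19.5. Cells 10 and 36 lacked Krt8 at 49 and 60 detected assays, against a median of 54 over all cells. Cell 36 had Krt18 at 13.5, Krt19 at 19.3 and Krt15 at 17.8, so its missing Krt8 stands beside early values of the partner genes. Cell 22 had no Krt8 and no Krt18 at 38 detected assays, with Krt19 at 21.8 and Cdh1, the E-cadherin gene, at 21.6.

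Of the 13 cells that lacked 1 or more of the 3 genes, the remaining 9 detected 9 to 30 assays. Cells 73 and 86, with 13 and 9 detected assays, had Krt19 as their only member gene, at a Ct of 22.5 and 21.3. Krt18 was missing in 5 cells (22, 25, 49, 73 and 86) and Krt19 in 3 (1, 2 and 52). In the 88 cells left after removal of the 8 low-Gapdh cells (Gapdh Ct above 18 or none), all 3 simple keratins were detected together in 94.3%, against 86.5% of all 96.

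**Figure D2:**
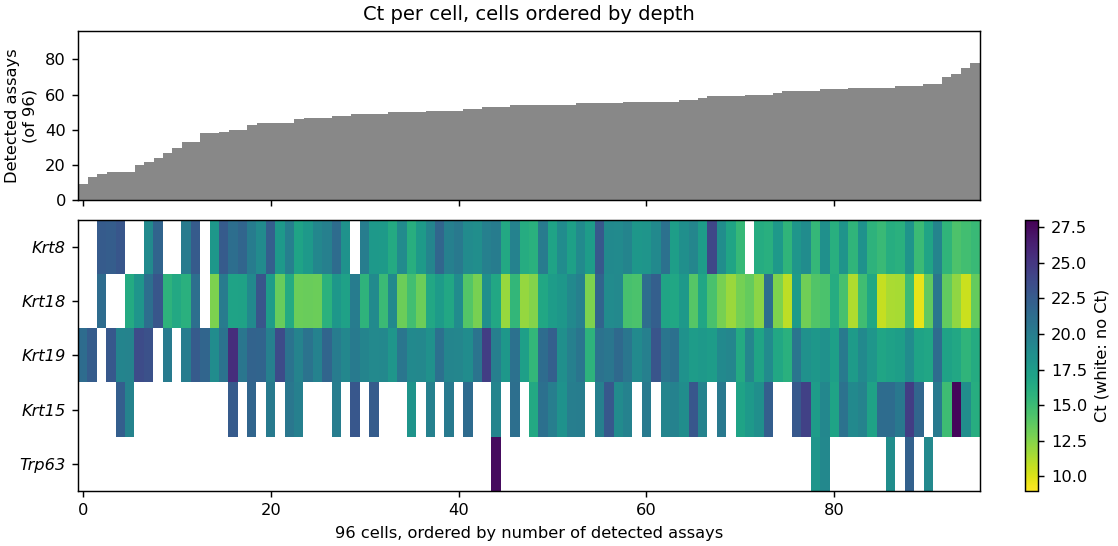
Upper panel, number of the 96 assays detected in each cell; lower panel, Ct of the 5 members in the same cells, ordered from fewest to most detected assays, with white for no Ct. The white cells of Krt8, Krt18 and Krt19 lie mostly at the left, whereas those of Krt15 run through the order, and the 6 Trp63 cells had 53 to 66 detected assays.

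The share of cells with Krt15 was lower where the reference gene came later. The cells were placed in 4 groups of 24 by the Ct of Gapdh, a glycolytic gene used as reference. From the earliest to the latest Gapdh group, Krt15 was detected in 19, 17, 11 and 9 cells, and the medians of detected assays were 62.5, 55.5, 51.5 and 35.5. Krt19 was detected in 24, 24, 24 and 21 cells, Krt18 in 24, 24, 24 and 19, and Krt8 in 23, 23, 24 and 17. Between the 48 cells with the earlier and the 48 with the later Gapdh, the share of Krt15 differed by 33.3 percentage points (75.0% and 41.7%). Of the 95 assays found in any cell, 91.6% were also found more often in the earlier cells, with a median difference of 18.75 points. Cells that hold Krt15 transcript and gave no Ct could therefore not be told from cells that hold none. The simple keratins were near 100% in the earlier cells, which leaves their shares little room to differ. Of the 25 cells with 60 or more detected assays, 22 had Krt15 (88%), 24 had Krt8, and both Krt18 and Krt19 were found in 25.

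Where it was detected, Krt15 shifted less with Gapdh than Krt8 and Krt19 did. The median Ct of Krt8 was 15.9, 18.1, 19.2 and 21.3 from the earliest to the latest Gapdh group, and that of Krt19 was 17.1, 19.1, 20.7 and 20.8. The median Ct of Krt15 was 18.6, 20.2, 19.7 and 20.1, so it was about level over the later 3 groups. The medians of Krt18 were 13.2, 15.5, 16.8 and 16.9.

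Outside the low-Gapdh cells, the Ct of Krt8 followed that of Gapdh with a Spearman rho of 0.74 (Pearson r = 0.70, n = 84 cells) and that of Krt19 with 0.71 (r = 0.69, n = 87). For Krt18 the rho was 0.43 (r = 0.40, n = 87) and for Krt15 0.33 (r = 0.29, n = 54), against a median of 0.62 over 50 assays. These correlations run over cells of 1 labelled group, whose plate, chip and animal are not given cell by cell, and no p is attached to them.

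**Figure D3:**
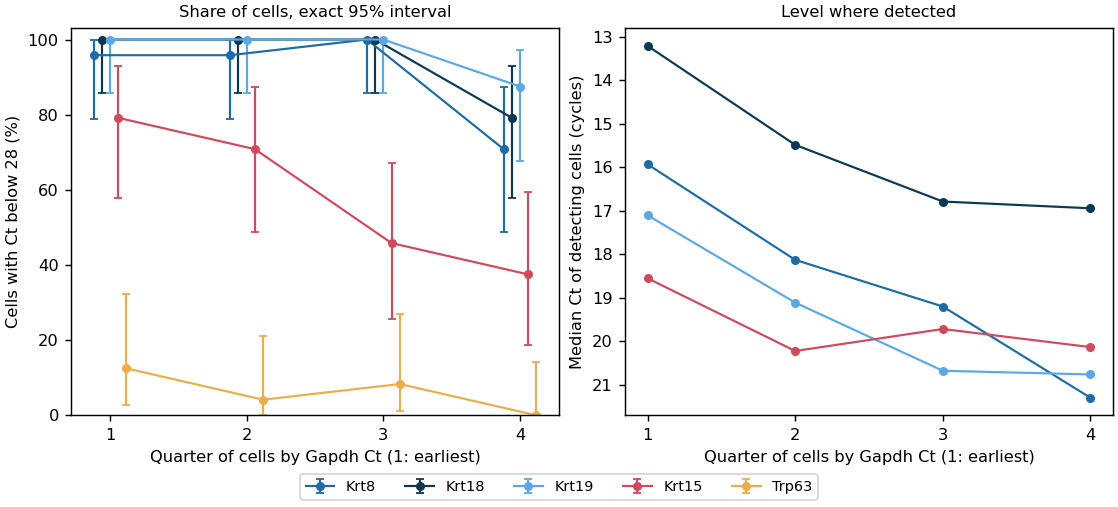
Left, share of cells (%) with each member in 4 groups of 24 cells ordered by Gapdh Ct, with exact 95% intervals; right, median Ct (cycles, earlier at the top) of the detecting cells. Krt15 is found in 79.2% of the earliest and 37.5% of the latest group, while its median Ct of 20.2, 19.7 and 20.1 in the later 3 groups moves less than that of Krt8 (18.1, 19.2 and 21.3).

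The Ct values of the 3 simple keratin genes varied together across cells, and those of Krt15 did not follow them closely. Over the 85 cells with both, the Ct of Krt8 and Krt18 had a Spearman rho of 0.60 (r = 0.58, and 0.60 without the 2 cells farthest from the median). Krt8 and Krt19 had 0.68 (r = 0.60, and 0.67 without 2 cells, n = 85), and Krt18 and Krt19 had 0.65 (r = 0.62, and 0.59 without 2 cells, n = 88). The median rho over the 1006 pairs of assays found together in at least 50 cells was 0.36, and 31.7% of those pairs reached 0.5. Krt15 had a rho of 0.16 with Krt18 (r = 0.09, n = 55), 0.31 with Krt8 (r = 0.23, n = 53) and 0.30 with Krt19 (r = 0.27, n = 56).

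Much of that likeness was shared with depth. After a linear fit of each level on the number of detected assays, over 96 cells with undetected values at level 0, the rho of Krt18 with Krt19 was 0.34 (r = 0.28), of Krt8 with Krt19 0.30 (r = 0.19) and of Krt8 with Krt18 0.29 (r = 0.23). For Krt15 it was -0.20 with Krt18 (r = -0.15), -0.04 with Krt8 (r = -0.05) and 0.02 with Krt19 (r = 0.09). The median over all pairs was 0.03. Without the low-Gapdh cells the 3 simple keratin pairs had rho values of 0.49, 0.38 and 0.41, in the same order.

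The balance between Krt8 and its type I partner genes was not fixed. The Ct of Krt8 minus that of Krt18 had a median of 3.42 cycles, an SD of 2.67 and a range from -5.11 to 9.46 over 85 cells, and Krt18 was the earlier of the pair in 70. For Krt8 minus Krt19 the median was -1.11 cycles with an SD of 1.91. The median SD of such a difference over the 1006 pairs was 2.35, so the Krt8 and Krt19 pair was tighter than most and the Krt8 and Krt18 pair looser. Krt18 and Krt15, which both encode type I keratins and so are not partners, were among the loosest pairs. Their SD was 3.56, wider than that of 96.9% of pairs. The spread did not follow partnership, because the other pairs of type I genes were tighter than Krt8 and Krt18. The SD of Krt18 and Krt19 was wider than that of 57.1% of pairs, and that of Krt19 and Krt15 wider than 62.1%. For Krt8 and Krt18 the share was 73.2%.

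**Figure D4:**
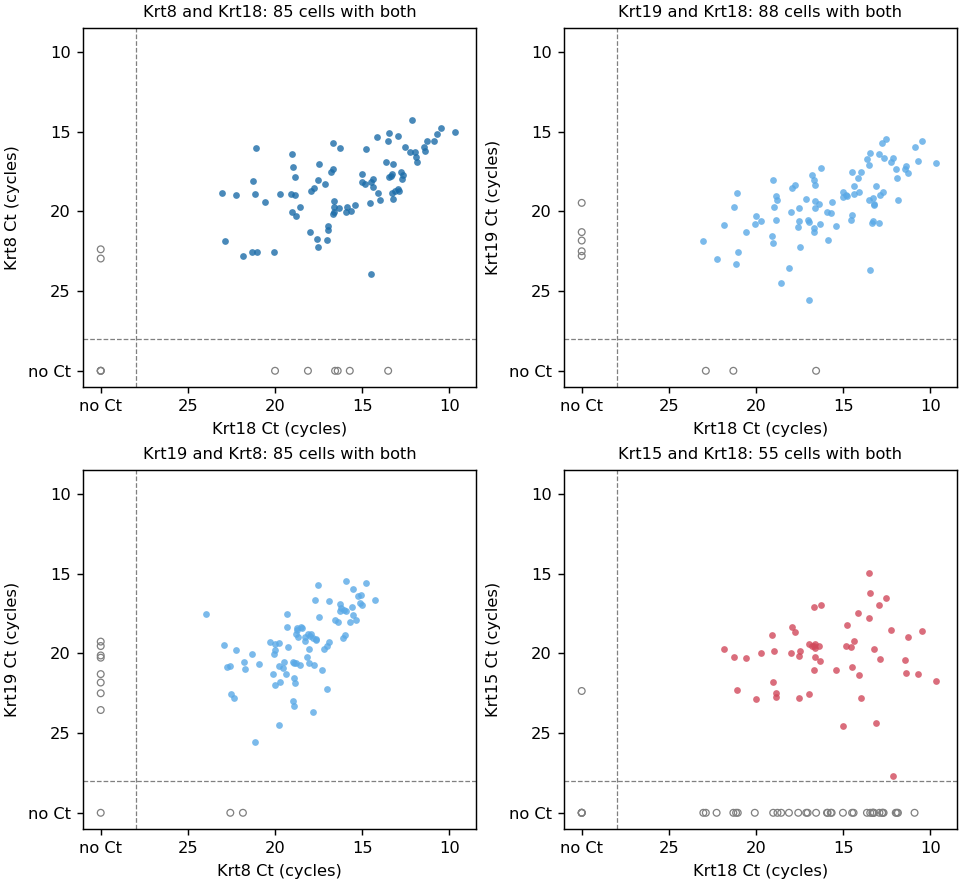
Ct against Ct (cycles, earlier values to the right and the top) for 4 pairs of keratins, 1 point a cell, with open circles for cells that lack 1 or both genes. Points of the simple keratins rise together (rho of 0.60 to 0.68), whereas Krt15 shows little slope against Krt18 (rho of 0.16) and its cells with no Ct span Krt18 values from 10.9 to 23.0.

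Krt18 was most like Cd9, Cdh1, Wnt7a, Itga6 and Epcam. These were its 5 nearest assays by the residual rho over 96 cells, which was 0.66 (r = 0.59) for Cd9, a tetraspanin gene, and 0.66 (r = 0.62) for Cdh1. It was 0.63 (r = 0.58) for Wnt7a, a WNT ligand of uterine epithelium, 0.62 (r = 0.58) for Itga6, an integrin subunit that binds laminin, and 0.60 (r = 0.56) for Epcam. Of 85 assays, 10.6% reached a rho of 0.5 with Krt18, against 1.89% of all pairs of assays. The references Hprt (0.56) and actin (0.55) were among them, and without the low-Gapdh cells actin, at 0.70, stood among the 5 nearest. Furthest from Krt18 were Tdgf1, which encodes the co-receptor Cripto (-0.38, r = -0.31), and Mst1r, a receptor kinase gene (-0.37, r = -0.38). Without the depth fit their rho was 0.16 and -0.15. Without the low-Gapdh cells the furthest was Esr1, the estrogen receptor alpha gene (-0.47, and -0.33 over 96 cells), before Mst1r (-0.41) and Tdgf1 (-0.40).

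Krt8 and Krt19 had weaker neighbours, and over the 96 cells no assay reached 0.5 with either. Without the low-Gapdh cells Gapdh did so with Krt8 (0.55), and Cd24a (0.54), actin (0.53) and Cdh1 (0.53) did so with Krt19. Krt8 was nearest to Cd44, a hyaluronan receptor gene (0.44, r = 0.27), Nt5e, an ectonucleotidase gene (0.42, r = 0.25), Gapdh (0.42, r = 0.26), actin (0.36, r = 0.24) and the integrin gene Itgb1 (0.32, r = 0.18). Its lowest values were with Anpep (-0.16) and Bmi1 (-0.15). Krt19 was nearest to actin (0.48, r = 0.30), the integrin gene Itga3 (0.41, r = 0.35), Hprt (0.40, r = 0.35), Epcam (0.39, r = 0.33) and Igf1r (0.38, r = 0.27), and furthest from Pecam1 (-0.23) and Bmi1 (-0.20).

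Krt15 was nearest to Anpep, an aminopeptidase gene (0.39, r = 0.38), Tdgf1 (0.26, r = 0.27), Il17ra, a cytokine receptor gene (0.26, r = 0.28), Esr1, the estrogen receptor alpha gene (0.26, r = 0.33), and Ptprc, the leukocyte phosphatase CD45 (0.21, r = 0.21). Its lowest values were with Wnt7a (-0.35, r = -0.33) and Hopx, a homeodomain gene (-0.26, r = -0.21). Esr1 was detected in 52 of the 56 cells with Krt15 (92.9%) and in 22 of the 40 without it (55.0%). Anpep was detected in 33 of 56 (58.9%) and in 8 of 40 (20.0%). The shares were 67.9% and 25% for Il17ra, 85.7% and 47.5% for Tdgf1, and 75% and 37.5% for Ptprc. All were picked by a rho in which undetected cells count as level 0, so gaps in detection were partly built in.

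Depth differed between these cells too: those with Krt15 had a median of 56 detected assays and those without 47.5. Within the 48 cells of earlier Gapdh, Esr1 was found in 34 of 36 cells with Krt15 and in 9 of 12 without, and Anpep in 19 of 36 and 4 of 12. In the 48 cells of later Gapdh the counts were 18 of 20 and 13 of 28 for Esr1, and 14 of 20 and 4 of 28 for Anpep.

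The low value of Wnt7a with Krt15 appeared after the depth fit, and without it the rho was 0.03, and Wnt7a was found in 30 of 56 cells with Krt15 (53.6%) and 22 of 40 without (55.0%). Within the cells of earlier Gapdh the counts were 23 of 36 and 11 of 12, and within those of later Gapdh 7 of 20 and 11 of 28. Detected assays were not matched between the cells with and without Krt15 inside these groups.

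Among the epithelial and junction genes, 5 of the 11 listed were on the panel (Epcam, Cdh1, Cd24a, Cd9 and Gja1), each in at least 50% of cells. Their residual rho with Krt18 was above 0 for 5 of 5, with a median of 0.60 and values of 0.5 or more for 4. With Krt15 it was above 0 for 0 of 5, with a median of -0.15. The medians over 85 assays were 0.03 for Krt18 and -0.04 for Krt15, and the numbers above 0 were 43 and 34. Cd9, Cdh1 and Epcam were already named among the 5 nearest assays of Krt18, so the list in part restates that ranking. The gap-junction gene Gja1 was the member with the lowest value for Krt18, 0.14. The negative values with Krt15 appeared after the depth fit. Without the fit its rho was 0.19 with Epcam, 0.23 with Cdh1, 0.26 with Cd24a, 0.21 with Cd9 and 0.13 with Gja1. For Krt18 the values without the fit ran from 0.32 (Gja1) to 0.82 (Cdh1).

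Of the basal and squamous list, 7 of 11 genes were measured, and neither Krt5 nor Krt14, the defining keratins of basal cells, was among them. Itgb1 was found in 82 cells, Cd44 in 77, Itga6 in 68 and Lgr6, an R-spondin receptor gene, in 57, while Ngfr, a neurotrophin receptor gene, was found in 7. The residual rho of Krt15 with those 4 common genes was -0.22, -0.12, -0.12 and 0.07. Without the depth fit it was 0.18, 0.25, 0.23 and 0.30. The residual rho of Krt18 with the same genes was 0.26, 0.16, 0.62 and -0.31.

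Of the 6 luminal and Müllerian genes, 5 could be compared, and 2 had a rho above 0 with Krt15 (Esr1, and Pgr at 0.03) against 3 with Krt18 (Wnt7a, Pax2 at 0.30 and Emx2 at 0.17). Below 0 were Esr1 (-0.33) and Pgr (-0.23) with Krt18, and Wnt7a (-0.35), Pax2 (-0.16) and Emx2 (-0.06) with Krt15. Over all 85 assays the numbers above 0 were 34 for Krt15 and 43 for Krt18, shares near those of the list. Of the gland genes, Sox9 (38 cells) and Aldh1a1 (14) had a rho of 0.09 and 0.04 with Krt15 and of 0.14 and 0.12 with Krt18, and Foxa2 was found in 7 cells.

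**Figure D5:**
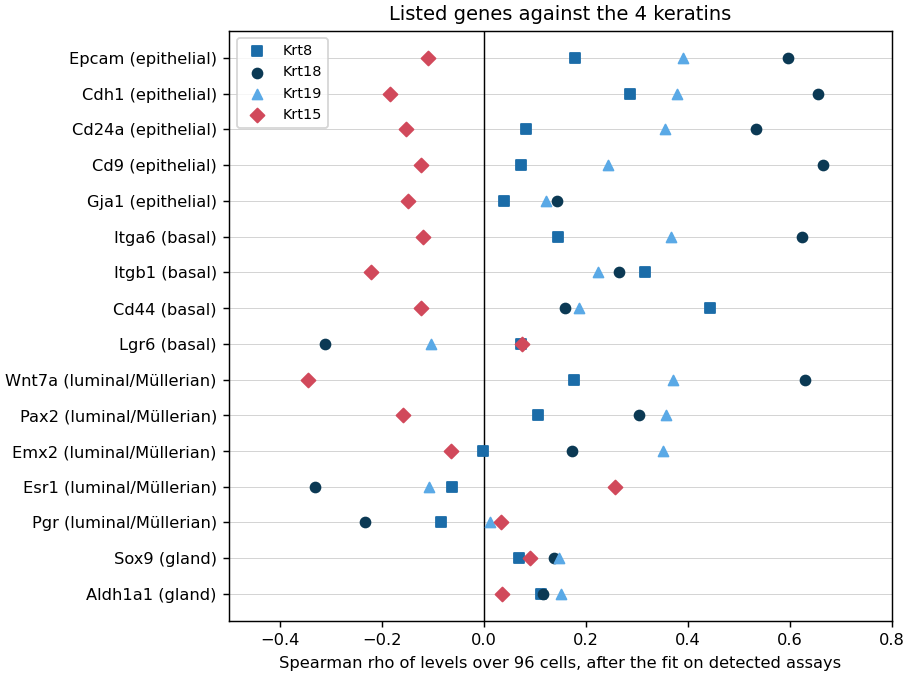
Spearman rho (x axis) of the level of each listed gene (rows, list in brackets) with that of Krt8, Krt18, Krt19 and Krt15 over 96 cells, after the fit on detected assays. Krt18 lies above 0.5 for Epcam, Cdh1, Cd24a, Cd9, Itga6 and Wnt7a, where Krt15 lies between -0.35 and -0.11. Without the fit, which is not drawn, Krt15 has values from 0.03 (Wnt7a) to 0.26 (Cd24a) with these genes.

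Markers assigned to other cell types were counted beside these results. Of 10 measured markers of stroma, endothelium and leukocytes, cells with Krt15 detected a median of 6 (range 1 to 9) and cells without it 4.5 (range 0 to 7). Vim, the mesenchymal filament gene, was found in 3 of the 56 (5.36%) and 4 of the 40 (10%). Every other marker had the higher share in cells with Krt15. Counts in the 56 and the 40 were 8 and 5 for Eng, 13 and 4 for Thy1, 11 and 4 for Mcam, and 52 and 31 for Nt5e. They were 48 and 25 for Mme, 45 and 25 for sma, 55 and 38 for Pecam1, 33 and 16 for Cd34, and 42 and 15 for Ptprc. Cells with Krt15 also detected more assays, a median of 56 against 47.5. The part of these markers in the likeness of Krt15 to Ptprc and Anpep was not tested. The residual rho with Krt15 was above 0 for 2 of 6 stromal, 1 of 3 endothelial and 1 of 1 leukocyte markers, with Eng on both of the first lists, beside 34 of 85 assays in all. On the mesothelial list the panel held Krt19 alone.

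The 6 cells with Trp63 carried the simple keratins as well. Trp63 had a Ct of 19.1 in cell 12, 27.5 in cell 29, 19.1 in cell 35, 22.1 in cell 46, 18.1 in cell 72 and 18.7 in cell 92. Cells 12, 35, 72 and 92 had early values, and cell 29 lay close to the limit. When detection was set at 26 cycles, 5 cells remained. Without the 10% of cells with the most detected assays the share of Trp63 was 3.49% of 86 cells, in place of 6.25% of 96.

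Each of the 6 had Krt8 (Ct 15.3 to 20.0), Krt18 (11.4 to 16.6) and Krt19 (16.7 to 19.8). Krt15 was detected in 5 of them, at 19.2 in cell 12, 19.4 in cell 29, 24.5 in cell 46, 17.5 in cell 72 and 21.3 in cell 92, and had no Ct in cell 35. These cells detected 53 to 66 assays, beside a median of 54 over all cells. Cell 29 had 53, and cells 12, 35, 46, 72 and 92 had 62 to 66. Their Gapdh Ct lay between 10.7 and 13.8, beside a median of 13.4 over all cells. The 47 other cells with at least 53 detected assays had Krt15 in 37 (78.7%), Krt8 in 46 and both Krt18 and Krt19 in 47. High counts of keratins were thus usual in cells of that depth. Of the 25 cells with 60 or more detected assays, cells with Trp63 included, 22 had Krt15 (88%).

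Epithelial genes were also frequent, both in the 6 cells and in the 47. Epcam was found in 6 of the 6 Trp63 cells and in 40 of the 47, Cdh1 in 6 and 44, Itga6 in 6 and 40, and Cd44 in 6 and 43. Wnt7a was found in 5 and 32, Sox9 in 5 and 24, Pgr in 6 and 33, and Lgr6 in 3 and 38. With 6 cells, none of these counts was tested. Vim and Eng were at no Ct in the 6 cells, and were found in 3 and 9 of the 47. Both were rare, in 7 and 13 of all 96 cells. Of the other stromal and endothelial markers, Nt5e, Mme and Pecam1 were found in 6 of the 6. There sma was found in 4, Mcam and Cd34 in 2, and Thy1 in 1. The number of other-type markers was 4 to 6 of 10, beside a median of 5 over all cells. Ptprc was detected in 5 of the 6 and in 38 of the 47.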

How the data were processed

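Of 96 single cells, 96 assays each were measured by quantitative PCR with the dye EvaGreen on a Fluidigm Biomark chip after reverse transcription and preamplification, per the labels' protocols. The deposited Ct score is raw, per the file headers, and 4320 of 9216 values are 40, which stands for no Ct. The deposited ratio table gives fold changes to a housekeeping gene and then to cell 1, per the file headers; recomputed with Gapdh from Ct it differed by at most 6.55e-06 on the log2 scale, and it served as an alternative. For threshold settings and primer sequences, no source used here gives them. The short name p63 is a synonym of 4 mouse genes in RefSeq (GRCm38.p6) and was read as Trp63, and Krt8 has a pseudogene there, which the assay was not checked against. Depth is the number of detected assays, with a median of 54 (range 9 to 78).

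The members and gene lists were chosen with earlier results of these data known. Named genes were the members, reference genes and Epcam, the 5 most and 2 least like assays of each keratin (by residual rho, assays in at least 10% of cells), neighbours in the order of shares, and the lists. Genes in the comparison of cells with and without Krt15 came from those. The groups of 24 cells by Gapdh Ct, the count of values below a Ct of 24 and the 47 cells set beside the Trp63 cells were chosen after the data were seen. No doublets were removed. The correlation step was tested on simulated data in which a value was missing only where its Ct was late. Krt15, with mostly early values beside 40 cells with no Ct, differs from that setting. Python 3.11.15, numpy 2.4.6, pandas 2.3.3, scipy 1.17.1 and matplotlib 3.10.9 were used.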

Additional observations from a re-analysis of the deposited data

How the results depend on the processing

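Of 231 recomputed values, 187 lay within the counting interval of a share, 1 SD of a level, the Fisher 95% interval of a rho or 1.5 times a count, and 44 moved. Of 45 shares of single genes, 4 moved, all of Krt18: 98.4% in the 63 cells that detected all 3 reference genes, 98.6% in the 74 cells that detected Epcam, 98.9% without the low-Gapdh cells and 98.8% without the 10% of cells with the fewest detected assays. The share with Krt8, Krt18 and Krt19 together was 93.7%, 94.3% and 95.3% with all reference genes, without low-Gapdh cells and without the lowest 10%. Leaving out cell 67 moved none of the shares. The share of Trp63, whose interval is wide, was 3.49% without the 10% of cells with the most detected assays.

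Mean levels move by construction where the scale changes. With a Ct limit of 24 they were 5.53 for Krt8, 8.12 for Krt18, 4.60 for Krt19 and 4.15 for Krt15. Minus Gapdh and actin they were -5.00, -2.47, -5.96 and -7.04, and -8.17 for Trp63. On log2 deposited folds, which are relative to cell 1, they were -3.22 for Krt8, -1.65 for Krt18, 13.60 for Krt19, 12.59 for Krt15 and 11.04 for Trp63, since cell 1 has no Ct for the last 3. With undetected cells at 0 they were 4.58 for Krt15 and 0.45 for Trp63.

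The rank correlations depended most on the treatment of depth. Without the depth fit rho was 0.62 for Krt8 with Krt18, 0.69 for Krt8 with Krt19, 0.68 for Krt18 with Krt19, 0.33 for Krt8 with Krt15, 0.13 for Krt18 with Krt15 and 0.35 for Krt19 with Krt15. On raw Ct in cells with both it was 0.60, 0.68, 0.65, 0.31, 0.16 and 0.30 in that order. The sign of Krt15 with Krt18 thus turns without the fit. For Krt8 with Krt15 it also turned with the fit kept, to 0.02 with a Ct limit of 24 and 0.06 in cells with all reference genes. For Krt19 with Krt15 it turned to -0.07 without low-Gapdh cells or the lowest 10%, -0.05 with Epcam, -0.04 with any recorded Ct, and -0.02 with all reference genes or without cell 67. Minus Gapdh, which puts 1 shared value into both genes, rho was 0.48 for Krt8 with Krt18, 0.53 for Krt18 with Krt19 and 0.29 for Krt19 with Krt15. With all reference genes it was 0.52 and 0.54 for the first 2 of these. The 5 assays most like Krt18 were the same 5 with Pearson r and without the fit, and 4 of 5 without low-Gapdh cells. For Krt19 only 2, 1 and 2 of 5 recurred, and for Krt15 4, 2 and 4. The cause was not tested. No paired analysis was possible because the labels give a single group of cells.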
